A study of Mus musculus with 6 samples.

Results

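The miRNAs described here are those named miR-297, miR-466, miR-467 and miR-669, families that in the mouse are encoded mainly by a large tandem cluster in an intron of Sfmbt2. They were taken by name from the table of normalized counts, as every entry that begins with mmu-miR-297, mmu-miR-466, mmu-miR-467 or mmu-miR-669 followed by a letter, a hyphen or the end of the name. This gave 33 of the 451 listed miRNAs, of which 1 was a miR-297, 14 were miR-466, 7 were miR-467 and 11 were miR-669. By arm, 20 came from the 5p side of the hairpin, 12 from the 3p side, and mmu-miR-466g carried no arm in its name. Small RNA was sequenced from T cell blasts and from the small extracellular vesicles (EVs) they released, in 3 libraries of each that carried the numbers 1, 2 and 5 in both groups. All mice were wild-type C57BL/6 animals of 8 to 12 weeks. Their total splenocytes were stimulated with concanavalin A, a T-cell mitogen, at 2 μg/ml, and were kept from 36 h on in 50 U/ml IL-2. The medium held 10% fetal bovine serum, which from 36 h on was serum that the paper calls EXO-free. T cell blasts are the cells of these cultures and small EVs are the pellet of their day 6 supernatant after a last spin at 100000 g. The starting population was not sorted, no library of culture medium was analysed, and the study described the replicates as independent experiments.

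Sfmbt2 encodes a Polycomb protein and is an imprinted gene, expressed from the paternal allele in the extraembryonic tissues of the mouse. The miRNA cluster in its intron is specific to rodents, is built from repeated copies of a few hairpins, is best known from placenta and embryonic stem cells, and is needed for normal placental growth. A hairpin is cut by Drosha and Dicer into a short duplex, from which either the 5p or the 3p strand is kept in an Argonaute protein, where bases 2 to 8 of the strand, the seed, select targets. The mature sequences of these families are rich in alternating U and G on one arm and in alternating C and A on the other, and many copies are near identical, so that short reads are hard to assign to a single copy.

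Of the hairpins with these names in GENCODE on GRCm38, 71 of 81 lay within Sfmbt2 (chromosome 2, from 10370510 to 10595253) and on its strand. They spanned 51617 bases, from 10466663 to 10518279, and none of them overlapped an annotated exon of Sfmbt2. In the coding transcript with the longest summed exons, of 23 exons, the cluster fell after exon 10 and was thus in intron 10. The 71 hairpins comprised 29 of miR-669, 23 of miR-466, 14 of miR-467 and 5 of miR-297. A miR-467, a miR-466 and a miR-669 hairpin followed each other in this order 11 times, and the 10 copies of Mir467a started 2413 to 4880 bases apart (median 2462). Mature arms of 59 of the 71 hairpins were among the listed miRNAs, and those of the other 12 were not analysed here. Of the 33 members, 29 had hairpins only inside Sfmbt2 and 11 had more than 1 hairpin. For example, mmu-miR-467a-5p can come from 10 copies, mmu-miR-669a-5p from 12 and mmu-miR-466b-3p from 8.

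**Figure D1:**
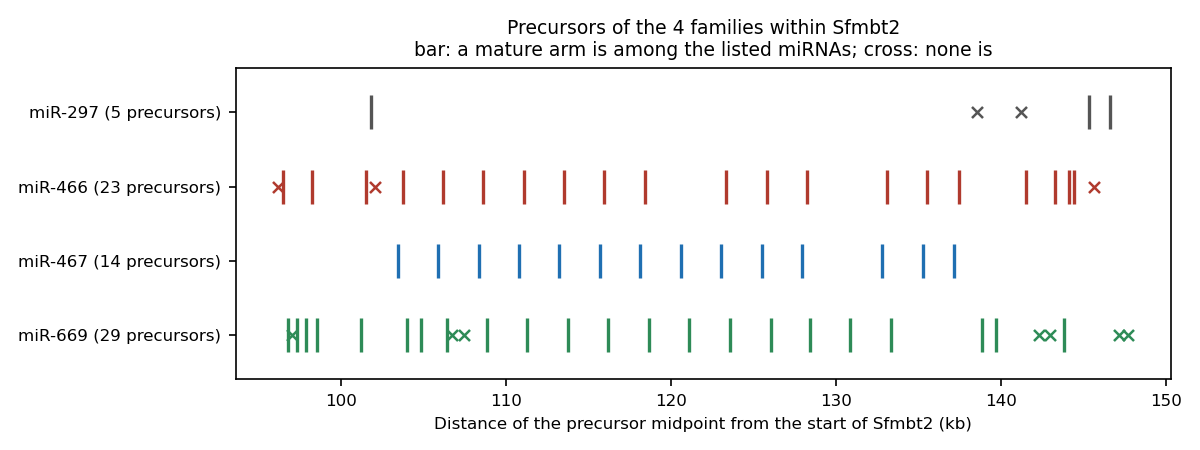
Map of the 71 hairpins inside Sfmbt2, by the distance of each midpoint from the start of the gene in kb, 1 row for each family. Bars are hairpins with a listed mature arm (59) and crosses those without (12), and the miR-467, miR-466 and miR-669 hairpins alternate along most of the cluster.

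Not all members belonged to the cluster. Both arms of miR-466i had their only hairpin, Mir466i, on chromosome 13 from 17747473 to 17747593 on the plus strand, inside the protein-coding gene Cdk13, which is transcribed from the minus strand, and outside its annotated exons. In addition, mmu-miR-297a-5p had 3 hairpins in Sfmbt2 and another on chromosome 7, from 10958437 to 10958512, and mmu-miR-466f-3p had 3 in Sfmbt2 and another on chromosome 13, from 71107089 to 71107209. The label of an Sfmbt2 cluster therefore applied in full to 29 of the 33 members, in part to 2, and not to mmu-miR-466i-5p and mmu-miR-466i-3p.

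A mature sequence was found in RefSeq (GRCm38.p6) for 370 of the 451 listed miRNAs and for 1 of the 33 members. It is shown because it carries the alternating repeat typical of these families, with the seed in capitals, beside those of a pair of listed miRNAs from other families that hold the longest runs of the complementary repeat.
mmu-miR-466i-3p: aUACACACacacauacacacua
mmu-miR-574-5p: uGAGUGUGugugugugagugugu
mmu-miR-1187: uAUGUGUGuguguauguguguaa
In mmu-miR-466i-3p, of 22 bases, C and A alternated without a break from base 3 to base 13, over 11 bases. Runs of alternating C and A, or of alternating U and G, of at least 8 bases were found in 4 of the 370 sequences (1.08%). Besides the sequences shown, where U and G alternated over 13 bases in mmu-miR-574-5p and over 11 in mmu-miR-1187, the fourth was mmu-miR-32-3p, with a run of 9. No other listed miRNA with a sequence shared the seed of mmu-miR-466i-3p. The other members had no sequence here, so neither their seeds nor their runs entered these counts.

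The members were rare in both groups. They took 182, 144 and 83 reads in T cell blasts 1, 2 and 5, and 286, 308 and 241 reads in small EVs 1, 2 and 5, which were 0.0351 to 0.0660% of the reads in cells and 0.0617 to 0.0922% in small EVs. The libraries held 236432 to 463498 reads over all listed miRNAs, and the values are counts per 1000000 reads (CPM), adjusted by the authors with a normalization factor for each library, of which 1 read is worth 3.67 to 4.79 CPM in cells and 2.09 to 3.47 CPM in small EVs. A count of 0 allows up to 3 reads, which is 11.0 to 14.4 CPM for the cells and 6.28 to 10.4 CPM for the small EVs. All intervals given here cover counting error only. At least 1 read in every library was found for 16 members, 12 members had a mean of at least 10 CPM over the 6 libraries, and 21 were below it. Summed over the 3 libraries of a group, 3 reads or fewer were found for 8 members in cells, 7 in small EVs, and 3 in both.

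The cultures carried a lymphocyte profile. All 7 miRNAs of a T cell and lymphocyte list were measured and summed to 89252 to 110719 CPM in cells and 73598 to 99072 CPM in small EVs. Markers of other cells were higher in small EVs. A red cell list (5 of 5 measured) summed to 246 to 258 CPM in cells and 1215 to 1861 CPM in small EVs, with mmu-miR-451a and both arms of miR-144 at 0 in all cells. A stromal and endothelial list (7 of 8 measured) summed to 214 to 273 and 1142 to 1655 CPM, with mmu-miR-145a-3p, mmu-miR-199a-3p, mmu-miR-199b-3p and mmu-miR-199a-5p at 0 in all cells. The myeloid mmu-miR-223-3p, 1 of 2 on its list, had 0 to 3.67 CPM in cells and 15.3 to 20.9 CPM in small EVs. The part of these other cells, or of the culture serum, in the differences below was not tested. Of the 9 miRNAs of an embryonic stem cell and trophoblast list, 0 were among the listed miRNAs, so no level can be given for them. Fewer cells of a type and less RNA per cell cannot be told apart in such libraries.

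**Figure D2:**
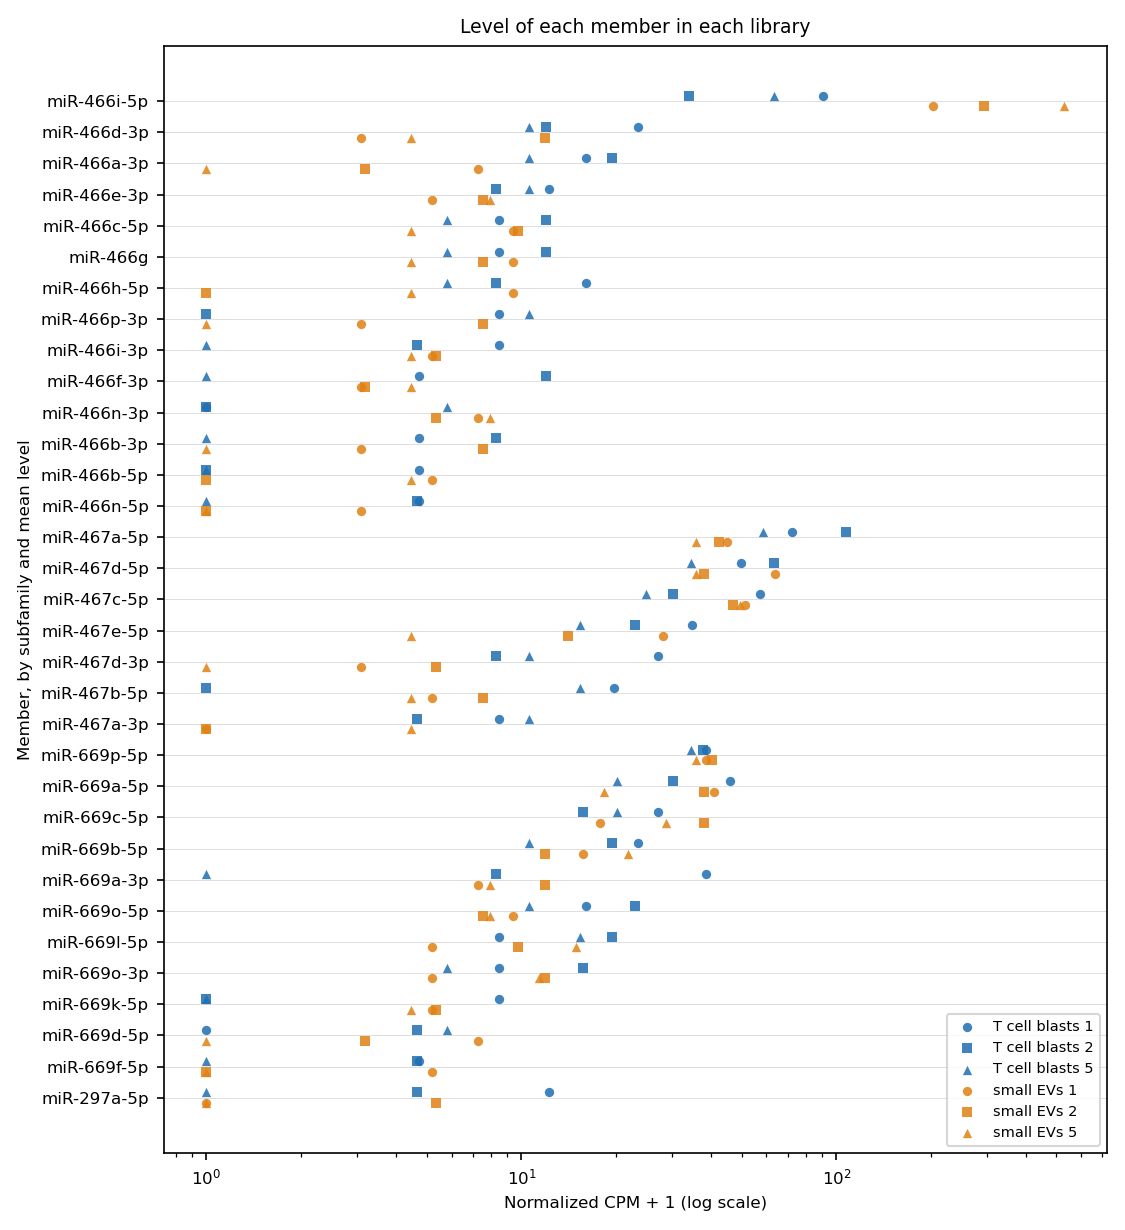
Level of the 33 members in each of the 6 libraries, as normalized CPM + 1 on a log scale (1 means no read), blue for T cell blasts and orange for small EVs, with a marker for each replicate number. mmu-miR-466i-5p stands apart at 201 to 528 CPM in small EVs, and most other members lie below 50 CPM, where a few reads make up a value.

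The summed level of the 33 members did not separate the groups. It was 682, 528 and 397 CPM in T cell blasts 1, 2 and 5 and 599, 673 and 837 CPM in small EVs 1, 2 and 5, with means of 536 ± 142 and 703 ± 122 CPM (SD, n = 3 each). These values overlapped between the groups, and the order of the replicates was opposite, with library 5 lowest among cells and highest among small EVs. The make-up of the sum differed between the groups. A single member, mmu-miR-466i-5p, held 13.2, 6.25 and 15.7% of the members' reads in cells 1, 2 and 5, and 33.6, 43.5 and 63.1% in small EVs 1, 2 and 5. Without it the sum was 592, 495 and 335 CPM in cells and 398, 380 and 309 CPM in small EVs, or 474 ± 130 and 362 ± 47.0 CPM (SD, n = 3 each), and the groups still overlapped. Pooled over libraries, these other 32 members had 363 reads in cells and 453 in small EVs, a ratio of small EVs to cells of 0.764 per library size, with a 95% counting interval of 0.664 to 0.879.

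**Figure D3:**
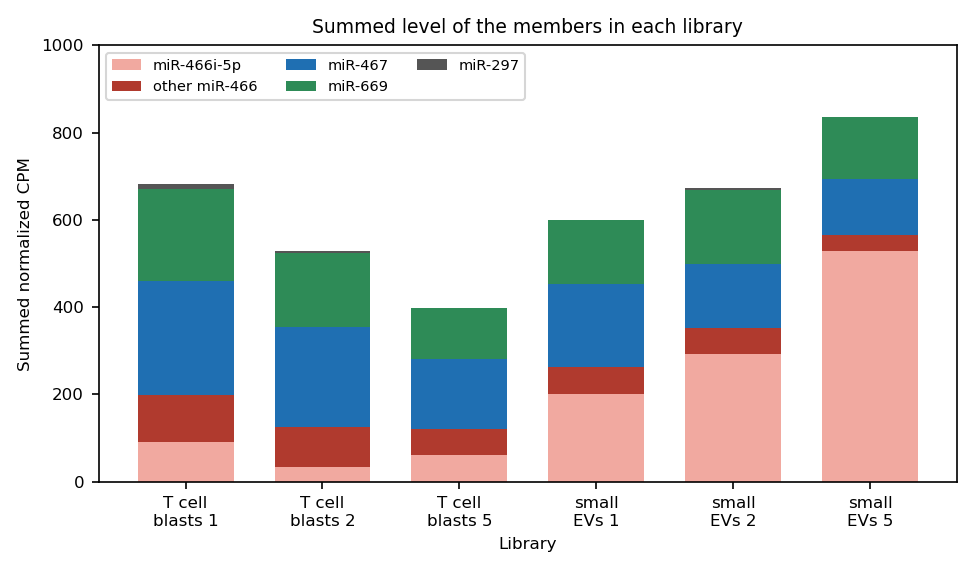
Summed normalized CPM of the members in each library, stacked by subfamily with mmu-miR-466i-5p apart from the other miR-466. The share of mmu-miR-466i-5p is 6.25 to 15.7% of the members' reads in cells and 33.6 to 63.1% in small EVs.

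Small EVs and cells were compared with limma on log2(CPM + 1) over all 451 miRNAs. The paper's heat map of activated T cells and their exosomes shows only miRNAs with an adjusted p under 0.02. The calls here used the threshold of the study's methods, an adjusted p of 0.2 (Benjamini-Hochberg). Of the 33 members, 2 were higher in small EVs (6.06%, against 21.1% of all listed miRNAs), 4 were lower (12.1%, against 12.4% of all) and 27 did not pass. The share of lower calls was thus near that of the whole table, and is not particular to these families. The median log2 difference of the members was -0.25, beside 0.02 over all 451 miRNAs. With no pass required, 10 members had a log2 difference above 0 and 23 below it. Among the 167 listed miRNAs with a mean under 10 CPM, 20.4% were called higher and 6.59% lower. In 1 member every small EV library was above every library of cells, against 20.4% of all listed miRNAs, and in 6 members every one was below, against 14.4% (34.8% in either direction). Exact permutation tests of 3 against 3 libraries cannot give a p under 0.1, the value that all of these 7 members had (2-sided).

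The counts of members were small under every other setting as well. With edgeR on the recovered reads 1 member was higher and 4 were lower, against 18.2 and 13.5% of all miRNAs tested, and when edgeR was blocked by replicate number 1 and 3, against 18.6 and 15.5%. With DESeq2 they were 1 and 2, against 17.6 and 11.3%, and among miRNAs with a mean of at least 10 CPM 1 and 1, against 21.5 and 17.3%. The block in limma left 2 and 4, against 23.5 and 16.2%. Scaling to a sum of 1000000 gave 2 and 4, against 24.4 and 10.6%, median-of-ratios size factors 2 and 4, against 21.3 and 12.4%, and rescaling to the miRNAs that each held under 5% of a library 2 and 5, against 18.0 and 17.3%. A pseudocount of 0.5 or 5 gave 2 and 4, against 20.6 and 12.4% or 20.8 and 13.1%. Leaving out 1 library of cells gave 1 to 3 higher and 3 to 6 lower, against 22.4, 18.0 and 22.8% higher and 12.9, 10.9 and 14.9% lower without number 1, 2 and 5. Leaving out 1 library of small EVs gave 1 higher and 3 to 4 lower, against 17.1, 17.1 and 18.0% higher and 10.2, 10.4 and 12.9% lower. At an adjusted p of 0.05 in limma, 1 member was higher and 0 were lower, against 12.9 and 6.43% of all. An unadjusted p under 0.05 was reached by 1 higher and 4 lower members in limma. The share of all listed miRNAs at that unadjusted threshold was not computed, so these counts cannot be set against the whole table.

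**Figure D4:**
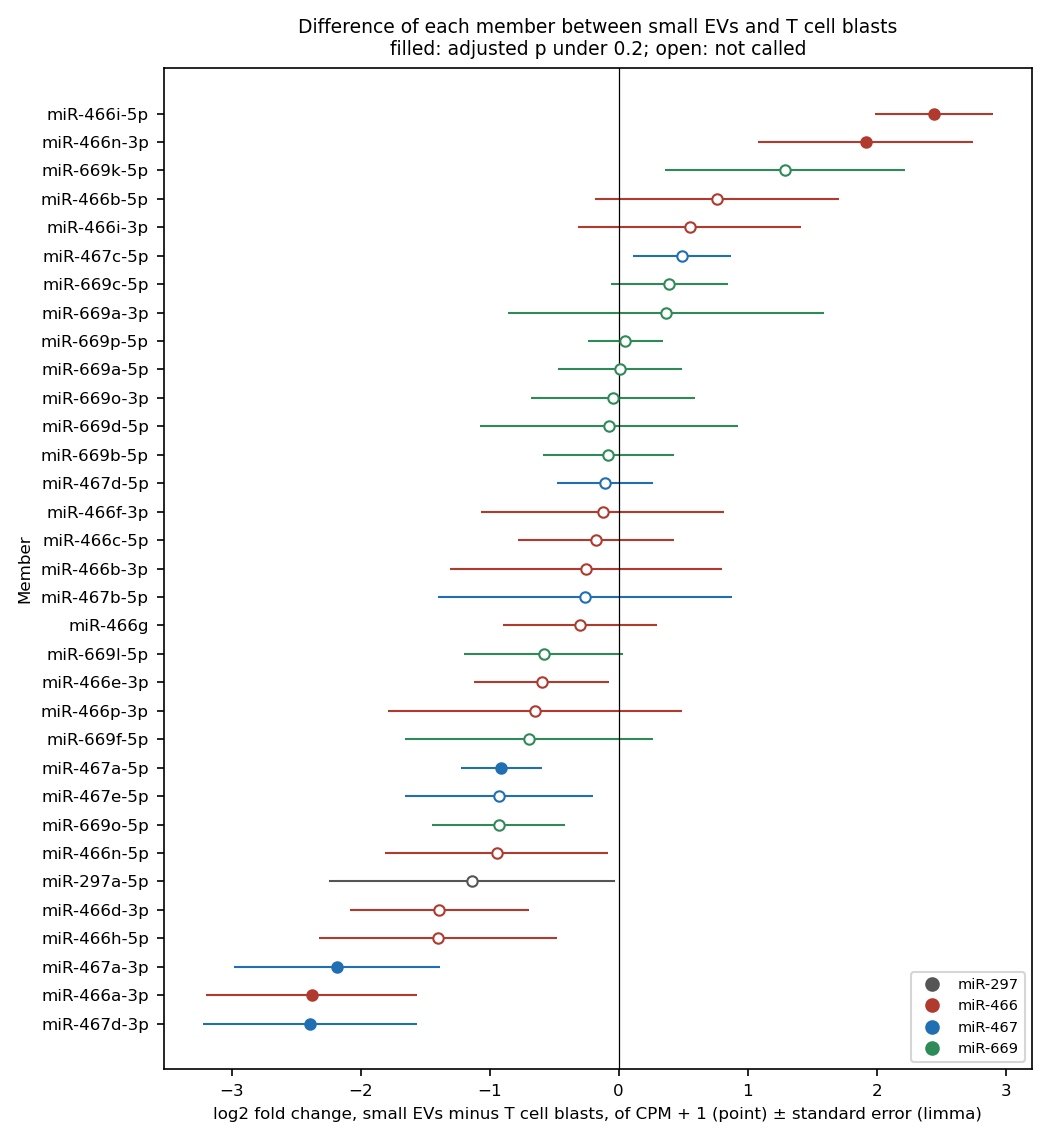
Difference of each member between small EVs and T cell blasts on the scale of log2(CPM + 1), with its standard error from limma, colored by family and filled where the adjusted p is under 0.2. Of the filled points, 2 are miR-466 above 0, 1 is a miR-466 below 0 and 3 are miR-467 below 0, and no miR-669 is filled.

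The member that set small EVs apart was mmu-miR-466i-5p, from the hairpin in Cdk13. It had 89.9, 33 and 62.2 CPM in T cell blasts 1, 2 and 5, from 24, 9 and 13 reads, and 201, 293 and 528 CPM in small EVs 1, 2 and 5, from 96, 134 and 152 reads. It ranked second of the 33 in cells and first in small EVs, where the next member, mmu-miR-467c-5p, had a mean of 48.2 CPM. Every small EV library lay above every library of cells, the log2 difference was 2.44 (standard error 0.46, adjusted p = 0.0103, limma), and the ratio of pooled reads was 5.08 (95% counting interval 3.74 to 7.06). The call held in all 16 alternatives, with a log2 difference of 2.06 to 2.77 and an adjusted p of at most 0.0445 in limma, edgeR or DESeq2. Since reads were matched to mature sequences of which many are near identical, the share that came from this hairpin rather than from a copy in Sfmbt2 or another repeat was not tested.

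Its other arm had too few reads for a comparison. mmu-miR-466i-3p had 2, 1 and 0 reads in cells 1, 2 and 5 and 2, 2 and 1 reads in small EVs, that is 3.72 ± 3.75 and 4.01 ± 0.474 CPM (SD, n = 3 each), with an adjusted p of 0.743 (limma) and a pooled ratio of 1.02 whose 95% counting interval ran from 0.198 to 6.57. An interval this wide also holds the ratio of the 5p arm, so that at this depth a difference between the arms was not detectable from these 8 reads. Measured within each library, the 5p arm exceeded the 3p arm by 3.42, 2.86 and 5.98 on the log2 scale in cells and by 5.28, 5.77 and 6.89 in small EVs, with overlap between the groups (2-sided exact permutation test, p = 0.3, adjusted over 7 hairpins p = 0.42).

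Other repeat-bearing miRNAs gave a mixed picture. mmu-miR-574-5p, which like the families described here carries alternating U and G, had 37.5, 33 and 47.9 CPM in cells and 44.0, 43.7 and 101 CPM in small EVs, with a log2 difference of 0.56 that missed the threshold (standard error 0.40, adjusted p = 0.42, limma). Its highest value was in small EVs 5, the library in which mmu-miR-466i-5p was also highest. mmu-miR-1187 had 1, 0 and 0 reads in cells and 1, 1 and 3 in small EVs, and mmu-miR-32-3p had 2, 2 and 1 reads in cells and 0, 0 and 1 in small EVs (log2 difference -2.17, adjusted p = 0.0891, limma), lower in every small EV library.

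Among the 172 other miRNAs with a mean of at least 50 CPM, the profile over the 6 libraries most like that of mmu-miR-466i-5p was that of mmu-miR-146a-5p, a miRNA induced by NF-κB, with a mean absolute difference of 0.50 between the centered log2 profiles, where the median over the 172 was 1.23. It was followed by mmu-miR-342-3p (0.61), which is transcribed within Evl, mmu-miR-6240 (0.62), mmu-miR-486b-5p (0.62), a red cell miRNA, and mmu-miR-141-3p (0.63), an epithelial miRNA of the miR-200 family. Of these 5, only mmu-miR-6240 had the same order of the small EV libraries, with 147, 240 and 656 CPM in small EVs 1, 2 and 5 after 22.5, 14.7 and 57.4 CPM in cells. The likeness is a description over 6 libraries of 2 groups.

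Of the 7 miR-467, 3 were lower in small EVs (42.9%, against 12.4% of all listed miRNAs), among them both members on the 3p arm, where 9.23% of the other listed 3p miRNAs were lower. These 2 had 9, 3 and 4 reads together in cells 1, 2 and 5 and 1, 2 and 1 in small EVs, which are 33.7, 11.0 and 19.1 CPM against 2.09, 4.37 and 3.47 CPM. All cells were above all small EVs, at 21.3 ± 11.5 and 3.31 ± 1.15 CPM (SD, n = 3 each), and the pooled ratio was 0.153 (95% counting interval 0.0372 to 0.474). Of these, mmu-miR-467d-3p fell from 26.2, 7.33 and 9.57 CPM in cells to 2.09, 4.37 and 0 CPM in small EVs, a log2 difference of -2.39 (standard error 0.83, adjusted p = 0.0841, limma). The call was lost without T cell blasts 1 or without small EVs 5 (adjusted p = 0.205 and 0.206). The other, mmu-miR-467a-3p, had 7.49, 3.67 and 9.57 CPM in cells, from 5 reads, and 0, 0 and 3.47 CPM in small EVs, from 1 read. Its log2 difference of -2.18 passed in limma (standard error 0.80, adjusted p = 0.101) and not without small EVs 1 or 2 (0.267 and 0.279), in DESeq2 (0.317) or in edgeR with the replicate number as a block (0.387). The 95% counting interval of its ratio, 0.00259 to 1.09, includes 1.

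The 5p arms of miR-467 held most of the reads of this subfamily. mmu-miR-467a-5p was the highest of all members in cells, with 71.2, 106 and 57.4 CPM in T cell blasts 1, 2 and 5, and had 44.0, 41.5 and 34.7 CPM in small EVs 1, 2 and 5. It was lower in every small EV library than in any library of cells, with 60 reads in cells and 50 in small EVs, a log2 difference of -0.91 (standard error 0.31, adjusted p = 0.0826, limma) and a pooled ratio of 0.510 (95% counting interval 0.343 to 0.755). This was the best covered of the decreases, and it passed in 15 of 16 alternatives, the exception being the fit without T cell blasts 2 (adjusted p = 0.24).

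Its relatives on the same arm did not pass. mmu-miR-467d-5p had 48.7, 62.3 and 33.5 CPM in cells and 62.8, 37.1 and 34.7 CPM in small EVs, means that differed by far less than the spread (adjusted p = 0.896, limma). mmu-miR-467c-5p had 56.2, 29.3 and 23.9 CPM in cells and an even 50.3, 45.9 and 48.6 CPM in small EVs (log2 difference 0.49, standard error 0.38, adjusted p = 0.469, limma). Without T cell blasts 1, the one library of cells above the small EVs, it was called higher (log2 difference 0.84, adjusted p = 0.125). mmu-miR-467e-5p had 33.7, 22.0 and 14.4 CPM in cells and 27.2, 13.1 and 3.47 CPM in small EVs (-0.93, standard error 0.73, adjusted p = 0.476, limma), with the same order of the 3 numbers in both groups. The last 5p member, mmu-miR-467b-5p, known in mouse macrophages as a repressor of lipoprotein lipase, had 8 reads in cells and 6 in small EVs, and was called lower without T cell blasts 2, where it had no read (log2 difference -1.64, adjusted p = 0.119, limma). Together the 5 miR-467 on the 5p arm summed to 229, 220.0 and 144 CPM in cells and to 189, 144 and 125 CPM in small EVs, which overlapped.

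Besides mmu-miR-466i-5p, the miR-466 subfamily had few reads per member. Without mmu-miR-466i-5p its 13 members summed to 109, 91.6 and 57.4 CPM in cells and 60.7, 59.0 and 38.2 CPM in small EVs, with 66 and 67 reads and a pooled ratio of 0.621 (95% counting interval 0.436 to 0.886). The groups overlapped by 1 library, since T cell blasts 5 lay below small EVs 1 and 2. Of these 13, mmu-miR-466a-3p was lower in small EVs, with 15.0, 18.3 and 9.57 CPM in cells, from 11 reads, and 6.28, 2.18 and 0 CPM in small EVs, from 4 reads. Its log2 difference was -2.38 (standard error 0.82, adjusted p = 0.0814, limma), its pooled ratio 0.223 (95% counting interval 0.0517 to 0.751), and the call was lost without T cell blasts 2 (0.206) and in DESeq2 (0.228).

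In the opposite direction, mmu-miR-466n-3p was called higher on very few reads. It had 0, 0 and 1 reads in cells and 3, 2 and 2 in small EVs, or 0, 0 and 4.79 CPM against 6.28, 4.37 and 6.94 CPM, and the groups overlapped. The limma value (log2 difference 1.92, standard error 0.83, adjusted p = 0.168) did not pass in edgeR (0.314) or DESeq2 (0.533), nor without any one library other than T cell blasts 5 (0.258 to 0.374), and the pooled ratio of 4.28 had a 95% counting interval of 0.55 to 193. Its other arm, mmu-miR-466n-5p, had 2 reads in cells and 1 in small EVs, and was called lower without T cell blasts 5 (adjusted p = 0.164, limma). Likewise mmu-miR-466b-5p had 1 and 3 reads in cells and small EVs and mmu-miR-466b-3p had 3 and 4, all spread over 1 to 2 libraries of a group. The remaining miR-466 did not pass in limma with all libraries. Nearest to it was mmu-miR-466d-3p, with 22.5, 11.0 and 9.57 CPM in cells and 2.09, 10.9 and 3.47 CPM in small EVs (log2 difference -1.39, standard error 0.69, adjusted p = 0.229), which was called lower without small EVs 2 (0.137) and when rescaled to miRNAs under 5% (0.181). These 7 had 4 to 11 reads in cells and 3 to 9 reads in small EVs, among them mmu-miR-466h-5p, known to promote apoptosis in hamster ovary cells, with 7 reads in cells and 5 in small EVs. In mmu-miR-466e-3p every small EV library was below every library of cells (9.38 ± 1.96 and 5.90 ± 1.49 CPM, SD, n = 3 each), yet with 7 reads in either group the difference did not pass (adjusted p = 0.533, limma).

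No miR-669 passed in either direction in limma, where 33.5% of all listed miRNAs did. The same count of 0 was found at an unadjusted p under 0.05, for which the share of all listed miRNAs was not computed. It was also found with edgeR and with DESeq2, which gave 3 of the 11 no adjusted p. Summed over its 11 members the subfamily had 210, 169 and 115 CPM in cells and 147, 168 and 142 CPM in small EVs, means of 164 ± 47.6 and 152 ± 13.8 CPM (SD, n = 3 each). The groups overlapped, and the pooled ratio was 0.913 (95% counting interval 0.725 to 1.15). The most even member of all was mmu-miR-669p-5p, with 37.5, 36.7 and 33.5 CPM in cells and 37.7, 39.3 and 34.7 CPM in small EVs. These 6 values lay within 33.5 to 39.3 CPM, and the log2 difference was 0.05 (standard error 0.29).

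Other miR-669 on the 5p arm varied more between libraries than between groups. mmu-miR-669a-5p, which with its 12 hairpins has the most copies in the cluster, had 45.0, 29.3 and 19.1 CPM in cells and 39.8, 37.1 and 17.4 CPM in small EVs, with number 5 the lowest in both. In mouse cardiac progenitors this miRNA is known to hold back the muscle program through MyoD. mmu-miR-669c-5p had 26.2, 14.7 and 19.1 CPM in cells and 16.8, 37.1 and 27.8 CPM in small EVs, and mmu-miR-669b-5p had 22.5, 18.3 and 9.57 against 14.7, 10.9 and 20.8 CPM. Both overlapped between the groups, as did mmu-miR-669l-5p, with 7.49, 18.3 and 14.4 CPM in cells and 4.19, 8.74 and 13.9 CPM in small EVs. By contrast, mmu-miR-669o-5p was lower in every small EV library, at 15.0, 22.0 and 9.57 CPM in cells against 8.38, 6.55 and 6.94 CPM. It rested on 12 and 9 reads and did not pass (log2 difference -0.93, standard error 0.51, adjusted p = 0.286, limma), except without T cell blasts 5 (0.143). The 3 other 5p members, mmu-miR-669d-5p, mmu-miR-669f-5p and mmu-miR-669k-5p, had 2 reads each in cells and 2 to 5 in small EVs. Without T cell blasts 1, the only library of cells with reads of it, mmu-miR-669k-5p was called higher (log2 difference 2.32, adjusted p = 0.0473, limma).

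The 3p arms of miR-669 were minor. mmu-miR-669a-3p had 10, 2 and 0 reads in cells 1, 2 and 5 and 3, 5 and 2 in small EVs, so that a single library, T cell blasts 1, held 37.5 of its CPM against 7.33 and 0 in the others. The mean was 14.9 ± 19.9 CPM among the cells and 8.05 ± 2.51 CPM among the small EVs (SD, n = 3 each), while the log2 difference was 0.37 (standard error 1.23), since the log scale weights the library at 0. mmu-miR-669o-3p had 7.49, 14.7 and 4.79 CPM in cells and 4.19, 10.9 and 10.4 CPM in small EVs. The only miR-297, mmu-miR-297a-5p, had 3, 1 and 0 reads in cells and 0, 2 and 0 in small EVs (adjusted p = 0.573, limma).

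Taking the arms together, the 12 members on the 3p arm summed to 150, 91.6 and 67.0 CPM in cells and 41.9, 69.9 and 45.1 CPM in small EVs, means of 103 ± 42.5 and 52.3 ± 15.3 CPM (SD, n = 3 each). The groups overlapped by the pair of T cell blasts 5 and small EVs 2, and the pooled ratio was 0.504 (95% counting interval 0.357 to 0.708). On the 5p arm, without mmu-miR-466i-5p, the sums were 435, 392 and 263 CPM in cells and 348, 304 and 260 CPM in small EVs, with a pooled ratio of 0.837 (0.715 to 0.980). Of the reads that carry an arm, again without mmu-miR-466i-5p, 25.6, 18.9 and 20.3% in cells 1, 2 and 5 and 10.8, 18.7 and 14.8% in small EVs were from the 3p arm. Every small EV library was below every library of cells, but small EVs 2 lay just below T cell blasts 2. Their 95% exact (Clopper-Pearson) intervals, 12.6 to 26.7% in T cell blasts 2 and 13.2 to 25.4% in small EVs 2, overlapped. So did those of T cell blasts 5 (11.6 to 31.7%) and small EVs 5 (8.11 to 23.9%). Those of T cell blasts 1 (19.0 to 33.2%) and small EVs 1 (6.69 to 16.1%) did not. In limma, 3 of 12 members on the 3p arm were lower (25.0%) and 1 was higher (8.33%), against 9.23 and 18.5% of the 195 other listed 3p miRNAs. On the 5p arm 1 of 20 was lower and 1 was higher (5.0% each), against 15.1 and 22.9% of the 179 others. The median log2 difference was -0.43 on the 3p arm and -0.14 on the 5p arm, while it was 0.10 for the other listed miRNAs on the 3p arm and 0.04 for the others on the 5p arm. In miR-466 without mmu-miR-466i-5p the 3p arm held 56.0 to 83.3% of the reads of a library, in miR-467 it held 1.10 to 12.9%, and in miR-669 4.17 to 21.4%.

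Both arms were listed for 7 hairpin names, which allows a comparison within each library. At low counts the added 1 leaves it dependent on the worth of 1 read. That worth was 2.09 CPM in small EVs 1 and 4.79 CPM in T cell blasts 5. The 5p arm exceeded the 3p arm of miR-467d by 0.87, 2.93 and 1.71 on the log2 scale in cells 1, 2 and 5 and by 4.37, 2.83 and 5.16 in small EVs 1, 2 and 5. The means were 1.83 ± 1.03 and 4.12 ± 1.18 (SD, n = 3 each), a shift of 2.28 toward the 5p arm in small EVs, with an overlap between T cell blasts 2 and small EVs 2 (exact permutation test, 2-sided p = 0.2). For miR-467a the excess was 3.09, 4.52 and 2.47 in cells and 5.49, 5.41 and 3.0 in small EVs (shift 1.27, exact permutation test, 2-sided p = 0.3). Its 3p arm had 0, 0 and 1 reads in small EVs 1, 2 and 5, so the shift depended on the pseudocount. At pseudocounts of 0.5 and 5 it was 1.88 and 0.12, while that of miR-467d was 2.69 and 1.26. For miR-669o it was 0.91, 0.55 and 0.87 in cells and 0.85, -0.66 and -0.52 in small EVs, a shift of -0.89 (exact permutation test, 2-sided p = 0.2), and miR-669a shifted by -0.36 (p = 0.8, the same exact test). Those of miR-466b and miR-466n rested on 1 to 7 reads per arm and group. None of the 7 shifts reached an adjusted p under 0.42 over the 7 hairpins (exact permutation test).

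Set against the library of the same number, some sums differed in one direction in all 3 pairs although the groups overlapped. The sum of the 3p arm was lower in small EVs in 3 of 3 pairs, as were those of miR-467 and of miR-466 without mmu-miR-466i-5p, and this held when libraries were scaled to a sum of 1000000. The sum of all members without mmu-miR-466i-5p was also lower in 3 of 3 pairs, but in 2 of 3 at a sum of 1000000. The sum of miR-669 was lower in 2 of 3 pairs, and in 1 of 3 under that scaling. The excess of the 5p arm was larger in small EVs in all 3 pairs for miR-466b, miR-466i and miR-467a and smaller in all 3 for miR-466n and miR-669o, while miR-467d and miR-669a differed in sign between pairs. Some of these pairs hold almost no information on the arms. In number 5, miR-466b had no read on either arm in cells and 1 read of the 5p arm in small EVs. There miR-466n had no read of the 5p arm, and 1 and 2 reads of the 3p arm in cells and small EVs. A 2-sided exact sign-flip test over 3 pairs cannot give a p under 0.25, so none of the differences within pairs can pass.

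**Figure D5:**
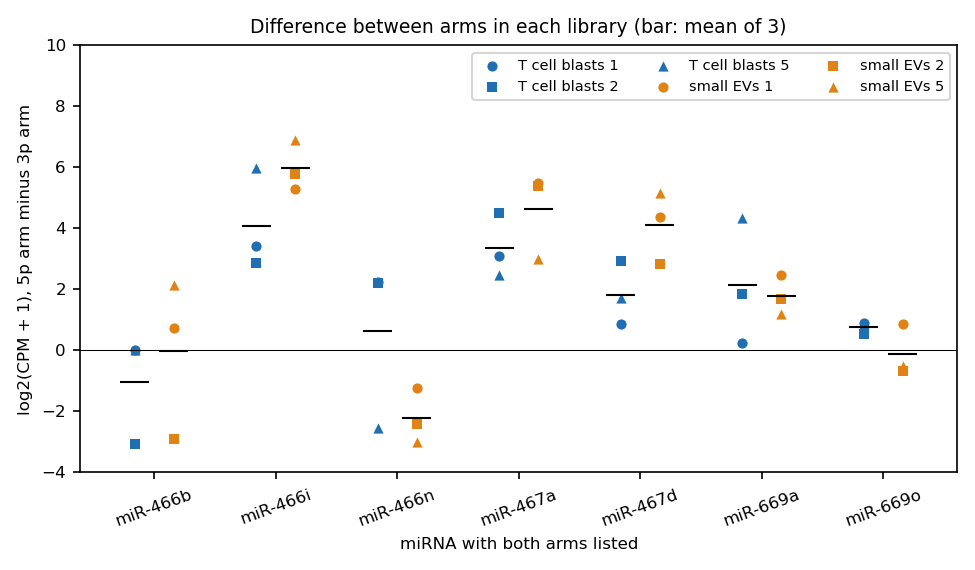
Excess of the 5p over the 3p arm, as a difference of log2(CPM + 1), in each library for the 7 names with both arms listed. Blue marks T cell blasts, orange small EVs, bars are means of 3 libraries, and the groups overlap for all 7 names.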

How the data were processed

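The 6 libraries were made from total RNA and read as single reads of 75 bp. Adapters were removed by the authors with Cutadapt, reads under 20 bp were dropped, and what was left was matched to miRBase 21 mature sequences (BWA in the submitters' notes) and quantified with RSEM 1.17. Entries reaching 1 CPM in at least 3 libraries were kept. The deposited signal is CPM normalized by the authors with TMM in edgeR. Dividing each value by the worth of 1 read gave whole numbers for 100% of values (tolerance 0.05), and these were used as reads. Near-identical mature sequences cannot be separated by such a match, so values of single members are uncertain.

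Groups were compared over 451 miRNAs on log2(CPM + 1), computed here from the deposited values, with limma 3.58.1 (R 4.3.3), a trend and no block, at a Benjamini-Hochberg adjusted p of 0.2. On this scale the added 1 pulls ratios of low values toward 1, and a library at 0 weighs more than in a mean of CPM. Other settings were pseudocounts of 0.5 and 5, a mean of at least 10 CPM, 3 scalings, replicate blocks, the omission of single libraries, a threshold of 0.05, edgeR 4.0.16 and DESeq2 1.42.0. Ratios of pooled reads carry 95% exact conditional intervals, and reads without molecular identifiers are not independent molecules. Members, lists and tests were chosen with earlier results of these data known. Every library is given for members that passed, that had a mean of at least 10 CPM, or that had both arms listed, and the others by counts and ranges. For mmu-miR-466i-5p the 5 closest profiles among other miRNAs of at least 50 CPM were named. Values of members outside this rule were added after they were seen. Same-numbered libraries deviated together over 284 miRNAs (correlations 0.148, 0.159 and 0.341 for numbers 1, 2 and 5). The crossed correlations of numbers 1 and 2 were similar. They were 0.166 for T cell blasts 2 with small EVs 1, and 0.114 for T cell blasts 1 with small EVs 2. Only number 5 thus gave a sign, from the data alone, that the numbers pair the libraries. The reported tests do not use the pairs, which enter only the blocked fits and, added after the data were seen, the differences within pairs. Hairpin positions come from GENCODE M21, matched by name.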

Additional observations from a re-analysis of the deposited data

How the results depend on the processing

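Most members had few reads, so single libraries decided many values. Of the members called higher, 2 in limma, 1 was left at a mean of at least 10 CPM, in edgeR, in edgeR with the replicate block, in DESeq2 and at an adjusted p of 0.05 (1 to 3 with 1 library left out). Of those called lower, 4 in limma, 1 was left at a mean of at least 10 CPM, where fewer members were tested, 2 in DESeq2, which gave no adjusted p for some rare members, and 0 at an adjusted p of 0.05 (3 to 6 with 1 library left out). The replicate block in limma changed no member's call, and in edgeR the call of mmu-miR-467a-3p was lost with it (adjusted p = 0.387, against 0.152 without it).

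Scaling moved the median log2 difference of all miRNAs from 0.02 to 0.19 at a sum of 1000000 and to -0.14 when rescaled to miRNAs under 5%. Differences near 0 changed sign with it. At a sum of 1000000 they were 0.063 for mmu-miR-467d-5p, 0.083 for mmu-miR-669b-5p and 0.11 for mmu-miR-669o-3p, and under the other scaling -0.16 for mmu-miR-669a-5p and -0.11 for mmu-miR-669p-5p. For mmu-miR-669a-3p, which rests on T cell blasts 1, the difference was -0.10 at a pseudocount of 5, -0.92 in edgeR, -0.90 with the replicate block in edgeR and -0.90 in DESeq2, and the arm difference of miR-669a was 0.10 at a pseudocount of 5. The median of the 3p members was 0.37 at a mean of at least 10 CPM, where 1 member was left.

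With 1 library left out, the log2 difference ranged from -0.37 to 0.10 for mmu-miR-467d-5p, -1.02 to 1.61 for mmu-miR-669a-3p, -0.29 to 0.38 for mmu-miR-669a-5p, -0.42 to 0.16 for mmu-miR-669b-5p, -1.14 to 0.50 for mmu-miR-466b-3p, -0.33 to 1.21 for mmu-miR-466i-3p and -0.37 to 0.35 for mmu-miR-669o-3p. The median of the 3p members ranged from -1.06 to -0.14, and the arm difference from -0.066 to 2.47 for miR-466b and from -1.31 to 0.73 for miR-669a. The causes of these changes were not tested.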
